A study of Homo sapiens with 6 samples.

Results

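The human mitochondrial genome is described here through its transcripts, as every gene of the deposited count table whose symbol starts with MT-. This rule found all 37 genes of that genome among the 58051 genes of the table: 13 protein genes, 2 ribosomal RNA genes and 22 transfer RNA genes. The cells were HEK293T, an established line from human embryonic kidney with the SV40 large T antigen, harvested 48 hours after transfection. The control group (CTRL, 3 libraries) received the empty plasmid pcDNA3.1-, and the PPK1 group (3 libraries) received pcDNA3.1-ppk1, which carries a bacterial gene for polyphosphate kinase, an enzyme that joins phosphate into long chains. Each group has libraries B, C and D, and the design text of the series calls libraries of the same letter matched biological replicates. Transfection was transient, so cells that took up plasmid and cells that did not were sequenced together, and the labels do not give the share of each. They give a range of plasmid amounts and 2 lipid reagents, not which library received which. The level of ppk1 itself was not analysed here, so the group labels have no check of that kind. The series addresses the response of human cells to polyphosphate made inside them.

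Mitochondrial DNA is a small circle present in many copies per cell, and it is transcribed from promoters on its heavy and its light strand into long precursors that run across many genes. The precursors are cut at the transfer RNAs that lie between most of the other genes, which releases the messenger and ribosomal RNAs. The 13 proteins are subunits of respiratory complex I (the ND genes), complex III (MT-CYB), complex IV (the CO genes) and the ATP synthase, complex V (the ATP genes). The ribosomal RNAs MT-RNR1 and MT-RNR2 belong to the small and the large subunit of the mitochondrial ribosome. Most mitochondrial messenger RNAs receive a poly(A) tail, while MT-ND6 is known to lack a stable one. Per the labels' protocols, the libraries were made after poly(A) selection, so each RNA was measured only as far as it passed that step. Below, "heavy strand" means the 28 genes copied from the heavy-strand promoters, and "light strand" the 9 genes copied from the light-strand promoter (MT-ND6 and 8 transfer RNAs).

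Neighbouring mitochondrial genes touch or overlap, which bears on every count given here. In GENCODE release 29, MT-ATP8 shares 46 of its 207 bases (22.2%) with the start of MT-ATP6, and MT-ND4L shares 7 of its 297 bases with the start of MT-ND4. Reads over such a stretch belong to both genes, and how they were assigned is not given in the sources used here. Both gene sequences are shown from GENCODE release 29 (GRCh38), 5′ to 3′, with the shared bases in capitals.
MT-ATP8: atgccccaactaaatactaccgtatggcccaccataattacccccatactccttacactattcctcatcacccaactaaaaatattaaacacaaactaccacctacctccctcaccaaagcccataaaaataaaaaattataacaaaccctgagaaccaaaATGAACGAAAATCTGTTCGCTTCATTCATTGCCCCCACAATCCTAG
MT-ND4L: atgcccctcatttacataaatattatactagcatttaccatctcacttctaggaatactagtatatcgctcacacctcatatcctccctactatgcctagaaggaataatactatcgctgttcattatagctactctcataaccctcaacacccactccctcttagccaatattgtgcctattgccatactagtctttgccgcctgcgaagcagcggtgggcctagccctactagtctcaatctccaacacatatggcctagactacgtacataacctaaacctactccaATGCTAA
The capitals open with the start codon of the downstream gene. A read of MT-ATP8 that reaches them cannot be told from one of MT-ATP6, so the levels of these short genes are uncertain. No transfer RNA gene lies between the genes of either pair, so their counts are not read here as those of separate messenger RNAs.

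Counts per library ran from 40851783 to 67122986, and the mitochondrial genes took between 1702881 and 3210553 of them. Their share of all counts was 3.99%, 4.13% and 4.17% in CTRL B, C and D, and 4.78%, 5.72% and 4.81% in PPK1 B, C and D. The PPK1 libraries were all above the CTRL libraries, and PPK1 C stood highest. Mitochondrial and other RNA are read as parts of 1 total, so more mitochondrial RNA, less of the other RNA and a different mix of cells cannot be told apart. The neuronal and kidney genes for which HEK293 cells are known were present (NEFM at 158 ± 32.5, VIM at 508 ± 25.9 and PAX2 at 3.00 ± 0.566 CPM in CTRL, mean ± SD, n = 3; CPM is the count scaled to library size, here with TMM factors). Among these, NEFL was lower with PPK1, from 78.1 ± 7.47 to 63.6 ± 2.53 CPM (mean ± SD, n = 3; edgeR adjusted p 0.00793, and 0.0776 without the block), and its part in the results was not tested. Of 6 genes of other cell types, ALB was highest (0.632 ± 0.177 CPM in CTRL). It was lower with PPK1 (0.237 ± 0.0299 CPM, edgeR adjusted p 0.00261), from 9 to 34 counts per library.

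Transcripts of all 13 mitochondrial protein genes and of the ribosomal RNA gene MT-RNR1 were called higher with PPK1, and so was the transfer RNA MT-TY. The calls of MT-ND6, MT-TY and MT-CO1 were lost in several other fits, and some others without the block or pair C, as described below. No mitochondrial gene was called lower, and 14 genes had too few counts to be tested. In all, 23 of the 37 genes passed the filter on low counts, and 15 of them had a Benjamini-Hochberg adjusted p under 0.05 in edgeR's quasi-likelihood test with the replicate letter as a block. Over all genes of the series 9.08% of 19574 tested genes were called, 4.04% higher and 5.04% lower. The median log2 fold change of the 23 was 0.40, against 0.01 for all genes tested. The groups did not overlap for 15 of the 23 genes, each time with PPK1 above CTRL. Among the 19574 tested genes this held for 2545, and 25.6% had groups that did not overlap in either direction. In 17 of the 23 the level was higher in all 3 pairs, against 22.6% of all tested genes, and 0 were lower in all 3, against 21.1%. At an unadjusted p under 0.05 the same test gave 16 genes higher and 0 lower. The share of all tested genes at that unadjusted threshold was not taken, so nothing is read from this count. DESeq2 called 11 higher and 0 lower, among 755 genes called in either direction.

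The size of the count rested on the pairing and on pair C. Without the block 10 genes were called higher (0.455% of all tested genes) and 0 lower (1.95%). Without pair C the fit with the block called 6 mitochondrial genes, among 406 genes called in all, against 1777 with the 3 pairs. The 6 were MT-ND1, MT-ND2, MT-ATP8, MT-ATP6, MT-CO3 and MT-CYB.

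**Figure D1:**
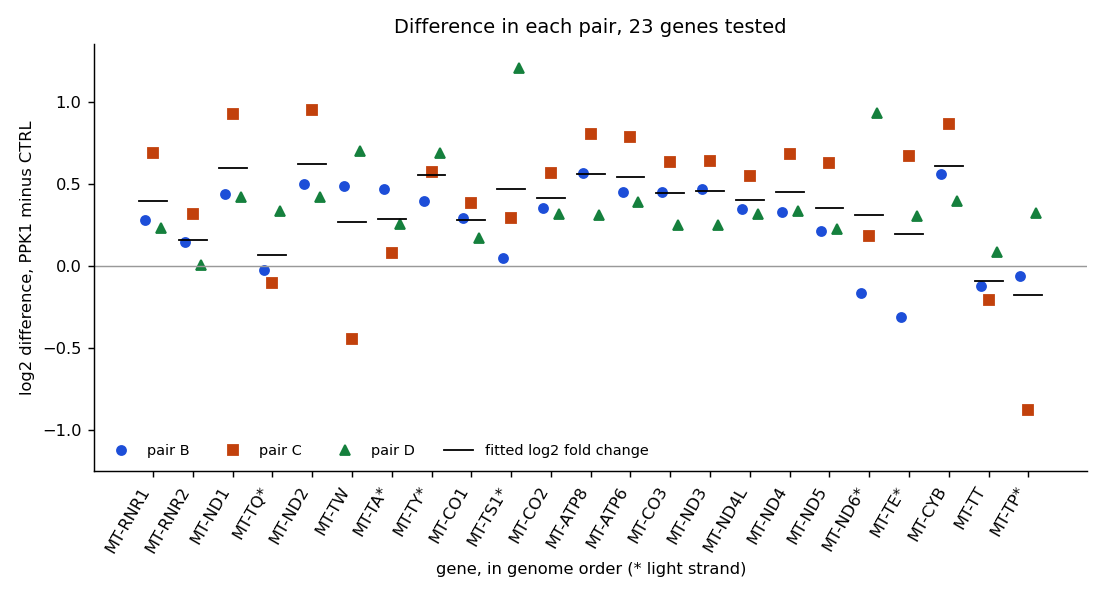
Log2 difference between PPK1 and CTRL (vertical axis) in pairs B, C and D for the 23 mitochondrial genes that passed the filter, in genome order, with the fitted log2 fold change as a bar. The heavy-strand protein genes lie above 0 in all 3 pairs with pair C highest, while MT-ND6, MT-TS1 and MT-TP scatter between pairs.

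Per length, MT-CO1 stood highest among the protein and ribosomal RNA genes in CTRL, at 5497 ± 278 CPM per kb (mean ± SD, n = 3). MT-RNR2 followed at 4636 ± 507 CPM per kb and MT-CO2 at 4624 ± 182, and their libraries overlapped. Next came MT-CO3 (4087 ± 425 CPM per kb), which overlapped MT-CO2, and MT-ND4 (3771 ± 59.6), which overlapped MT-CO3, and then MT-ATP6 (3240 ± 200.3), which overlapped neither neighbour. The complex III gene MT-CYB (2081 ± 223 CPM per kb), MT-ATP8 (2034 ± 210.5) and MT-ND4L (1892 ± 87.5) overlapped in turn. MT-ND5 stood clear of its neighbours at 1664 ± 39.3 CPM per kb. MT-ND1 (1392 ± 101), MT-ND3 (1267 ± 127), MT-ND2 (1173 ± 91.7) and MT-RNR1 (1020 ± 71.4 CPM per kb) formed a further run of overlapping neighbours. MT-ND6 was lowest, at 365 ± 92.1 CPM per kb. With PPK1, MT-RNR2 was in the fifth place (5142 ± 52.3 CPM per kb), below MT-CO2, MT-CO3 and MT-ND4, though its libraries overlapped those of MT-CO3, MT-ND4 and MT-ATP6. MT-ND2 (1840 ± 482 CPM per kb) and MT-ND3 (1740 ± 265) also stood in the other order and overlapped.

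**Figure D2:**
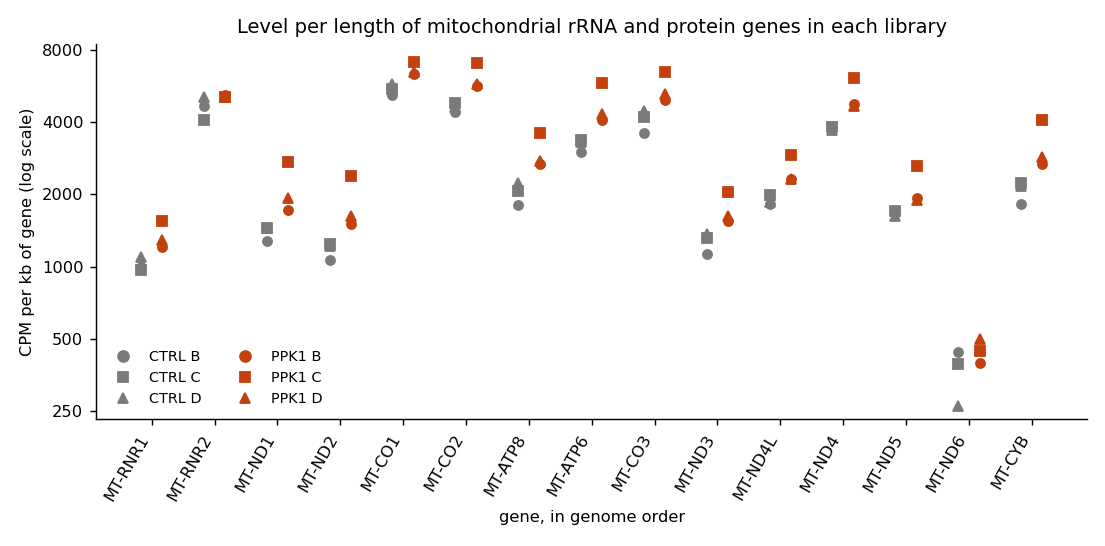
CPM per kb of gene length (vertical axis, log scale) for the 2 ribosomal RNA and 13 protein genes in genome order, 1 point per library, CTRL in grey and PPK1 in orange. MT-ND6 lies below every other gene in all 6 libraries, and MT-RNR2 is the gene whose PPK1 libraries sit closest together.

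Complex I, which takes electrons from NADH, has 7 mitochondrial subunits. All 7 were called higher, MT-ND6 only through pair D. MT-ND2 had the largest log2 fold change of the 23 genes tested. Its level was 1113, 1290 and 1264 CPM in CTRL B, C and D, and 1573, 2493 and 1687 CPM in PPK1 B, C and D. The groups did not overlap and PPK1 C was far above the others. This is a change of 0.62 log2 units (SE 0.09) at an edgeR adjusted p of 8.2e-07, or 0.0339 without the block. MT-ND1 was similar, at 1219.5, 1385 and 1388 CPM in CTRL B, C and D, and 1654, 2623 and 1856 CPM in PPK1 B, C and D. It rose by 0.59 log2 units (SE 0.09, edgeR adjusted p 2.0e-06). DESeq2 did not call MT-ND1 (adjusted p 0.113) or MT-ND2 (0.108).

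MT-ND4, the most counted gene of complex I, had 5236, 5251 and 5102 CPM in CTRL B, C and D, and 6561, 8433 and 6426 CPM in PPK1 B, C and D. Its control libraries lay close together, so the rise of 0.45 (log2 fold change, SE 0.09, edgeR adjusted p 0.000396) was larger than their spread in each pair. Without pair C its adjusted p was 0.0501. MT-ND5, the longest of the protein genes, had 3024, 3082 and 2941 CPM in CTRL B, C and D, and 3506, 4753 and 3443 CPM in PPK1 B, C and D. Its groups did not overlap, and PPK1 B and D lay close to each other. MT-ND3 had 389, 453 and 473 CPM in CTRL B, C and D, and 537, 707 and 562 CPM in PPK1 B, C and D. MT-ND4L, which overlaps MT-ND4, had 541, 591 and 554 CPM in CTRL B, C and D, and 687, 865 and 689 CPM in PPK1 B, C and D. In both of these short genes the controls differed more among themselves, relative to their mean, than in MT-ND5, and the groups stayed apart. MT-ND4L rose by 0.40 (SE 0.08), MT-ND3 by 0.45 (SE 0.08) and MT-ND5 by 0.35 (SE 0.09), as log2 fold changes. Their edgeR adjusted p-values ran from 5.3e-05 for MT-ND3 to 0.00462 for MT-ND5. MT-ND5 was not called without the block (0.109), and none of these 3 was called without pair C (0.0597 for MT-ND3, 0.102 for MT-ND4L and 0.403 for MT-ND5, whose log2 fold change was then 0.22).

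MT-ND6, the light-strand subunit of complex I, did not follow the others from pair to pair. It had 232, 205 and 138 CPM in CTRL B, C and D, and 207, 232 and 262 CPM in PPK1 B, C and D. The groups overlapped, and the lowest value was in CTRL D. Pair B gave a log2 difference of -0.16, pair C 0.18 and pair D 0.93. The fitted log2 fold change was 0.31 (SE 0.10, edgeR adjusted p 0.0349). This call rested on pair D: without it the log2 fold change was -0.01 (adjusted p 0.946). It was lost without the block (0.326), under RLE scaling (0.0538), under upper-quartile scaling (0.176) and in DESeq2 (0.713). The call was also lost without pair C (0.0541) and with a filter at a mean of 50 counts (0.107).

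MT-CYB encodes cytochrome b, the mitochondrial subunit of complex III. It had 2083, 2559 and 2479 CPM in CTRL B, C and D, and 3067, 4656 and 3263 CPM in PPK1 B, C and D. No PPK1 library overlapped the controls. Its rise of 0.61 log2 units (SE 0.09, edgeR adjusted p 1.5e-06) was also called in each fit that left out a pair, at 0.48 without C, 0.63 without B and 0.69 without D.

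Complex IV, cytochrome c oxidase, has the catalytic subunit MT-CO1 and the core subunits MT-CO2 and MT-CO3. MT-CO1 is the most counted mitochondrial gene, and it had the smallest rise of the 13 protein genes. Its level was 8049, 8473 and 8906 CPM in CTRL B, C and D, and 9860, 11035 and 10025 CPM in PPK1 B, C and D. The groups did not overlap. It rose by 0.28 log2 units (SE 0.09, edgeR adjusted p 0.0311). The call was lost without the block (0.108), with a filter at a mean of 50 counts (0.0640), without pair B (0.211) and without pair C (0.308). MT-CO2 had 3034, 3283 and 3170 CPM in CTRL B, C and D, and 3869, 4854 and 3953 CPM in PPK1 B, C and D. MT-CO3 had 2835, 3293 and 3484 CPM in CTRL B, C and D, and 3876, 5093 and 4135 CPM in PPK1 B, C and D. Both genes had groups that did not overlap, with PPK1 C highest. MT-CO2 rose by 0.41 (SE 0.08, edgeR adjusted p 0.000625) and MT-CO3 by 0.44 (SE 0.09, adjusted p 0.000294), as log2 fold changes. MT-CO2 was not called without pair C (0.0533), and MT-CO3 was not called without the block (0.0546).

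Complex V, the ATP synthase, has MT-ATP6 and MT-ATP8, whose shared bases are shown above. MT-ATP6 had 2051, 2307 and 2261 CPM in CTRL B, C and D, and 2798, 3964 and 2964 CPM in PPK1 B, C and D. MT-ATP8 had 375, 427 and 461 CPM in CTRL B, C and D, and 553, 746 and 571 CPM in PPK1 B, C and D. Neither gene's groups overlapped. MT-ATP6 rose by 0.54 log2 units (SE 0.08) and MT-ATP8 by 0.56 (SE 0.08), at edgeR adjusted p-values of 9.8e-06 and 1.7e-06. Leaving out the block or any 1 pair kept both calls, which are not independent since the genes overlap.

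The ribosomal RNAs differed from each other. MT-RNR1, the small-subunit RNA, had 951, 919 and 1050 CPM in CTRL B, C and D, and 1154, 1477 and 1231 CPM in PPK1 B, C and D. The groups did not overlap, and the rise was 0.40 log2 units (SE 0.08, edgeR adjusted p 0.000828). Without pair C it was 0.25, at an adjusted p of 0.308. MT-RNR2, the large-subunit RNA, had 7321, 6395 and 7967 CPM in CTRL B, C and D, and 8107, 7948 and 7995 CPM in PPK1 B, C and D. CTRL D lay inside the PPK1 range, and the log2 fold change of 0.16 (SE 0.09) did not pass (edgeR adjusted p 0.279). The counts of MT-RNR1 were 12.99%, 14.4% and 13.2% of those of MT-RNR2 in CTRL B, C and D, and 14.2%, 18.6% and 15.4% in PPK1 B, C and D. The ratio was higher in all 3 pairs, with an exact two-sided sign-flip p of 0.25, the smallest that 3 pairs allow.

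The 12 heavy-strand protein genes moved alike from pair to pair. Each was higher in all 3 pairs, and in each the difference was largest in pair C. Over all 13 protein genes the median log2 difference was 0.44 in pair B, 0.64 in pair C and 0.32 in pair D. Within the 12, the log2 fold change ran from 0.28 (MT-CO1) to 0.62 (MT-ND2). As a description over these 12 genes, which share their libraries and precursor, it correlated with the level per length in CTRL at Pearson's r -0.54 and Spearman's rho -0.51. The CTRL values enter both the level and the fold change, which can by itself pull such a correlation below 0. With gene length the log2 fold change correlated at r -0.31 and rho -0.20, with order along the genome at r -0.25 and rho -0.20, and with GC content at r -0.13 and rho -0.14.

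The next comparisons set each gene against the mitochondrial total of its library, which removes the rise that the genes had in common. Protein genes made up 78.4%, 81.6% and 78.3% of that total in CTRL B, C and D, and 80.7%, 84.2% and 81.2% in PPK1 B, C and D. The protein-gene share was thus higher within each pair, with a mean difference of 2.56 ± 0.31 percentage points (SD over 3 pairs). The ribosomal RNA genes took 21.5%, 18.3% and 21.6% in CTRL B, C and D, and 19.3%, 15.7% and 18.8% in PPK1 B, C and D, with a mean difference of -2.55 ± 0.318 points. The groups overlapped in level, since pair C was lowest in both, but the differences within pairs lay close together. Across the 9 shares compared (of all counts, by RNA class, by complex and by strand) the exact sign-flip p was at least 0.25, or 0.375 after Benjamini-Hochberg adjustment. This design therefore cannot pass 0.05. The 95% Clopper-Pearson interval of a share reached at most 0.0848 percentage points to either side and covers counting error only.

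Within the protein genes, the share of complex IV was lower with PPK1 in all 3 pairs, at 46.1%, 46.2% and 47.7% in CTRL B, C and D, and 45.4%, 41.6% and 45.5% in PPK1 B, C and D. The groups did not overlap, and the difference in pair C was the largest. Taken of the whole mitochondrial total instead, the complex IV share was higher in pair B by 0.479 points and differed by -2.65 and -0.455 points in C and D. The share of complex III was higher in all 3 pairs (7.45 ± 0.491% in CTRL and 8.44 ± 0.693% in PPK1, mean ± SD, n = 3), and so was that of complex V (8.26 ± 0.192% and 8.95 ± 0.349%). Complex I took 37.6 ± 1.29% and 38.4 ± 1.25%, lower with PPK1 in pair B and higher in C and D. The exact sign-flip p was 0.25 for complexes III, IV and V and 0.5 for complex I. The counts of MT-CYB were 25.9%, 30.2% and 27.8% of those of MT-CO1 in CTRL B, C and D, and 31.1%, 42.2% and 32.5% in PPK1 B, C and D. MT-CO1 had the smallest log2 fold change of the protein genes (0.28), and MT-CYB (0.61) one of the larger, below MT-ND2 (0.62). Their ratio restates those fold changes and is no separate evidence.

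**Figure D3:**
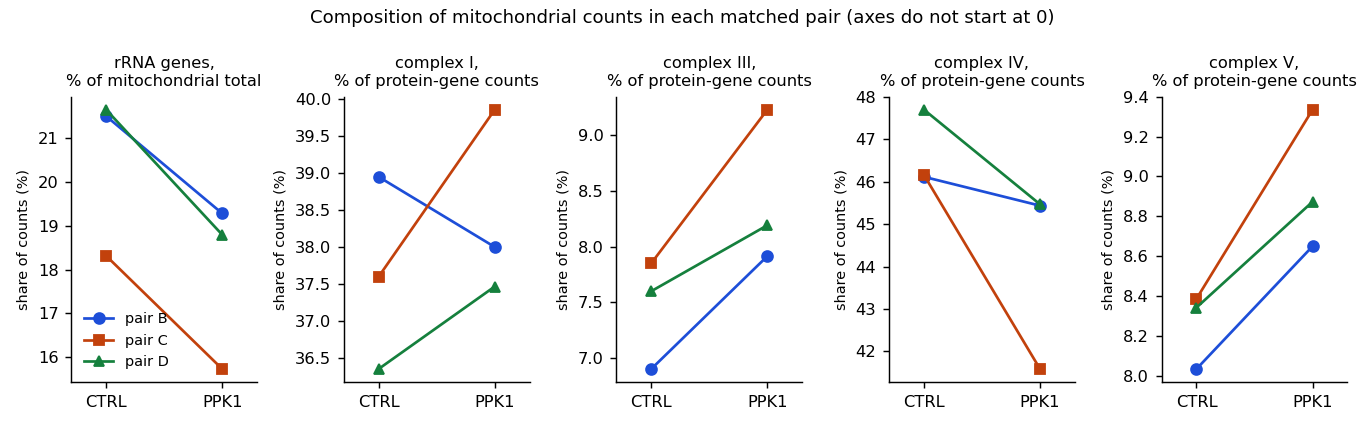
Share of counts in percent (vertical axes, which do not start at 0) in CTRL and PPK1 for pairs B, C and D. The ribosomal RNA genes are shown as a share of the mitochondrial total and complexes I, III, IV and V as shares of the protein-gene counts; the ribosomal RNA and complex IV shares are lower in PPK1 and the complex III and V shares higher in all 3 pairs, while complex I is lower in pair B only.

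Single genes differed in how their shares compared. MT-CO1 took 20.9%, 21.2% and 21.4% of the mitochondrial total in CTRL B, C and D, and 20.5%, 18.4% and 20.4% in PPK1 B, C and D, so that its share was lower in each pair and its groups did not overlap. Of the same total, MT-CO3 was higher in all 3 pairs, by 0.701, 0.257 and 0.0599 points, and MT-CO2 was higher in B and D and lower in C. This total includes the ribosomal RNA genes, whose share was lower with PPK1, unlike the protein-gene counts used for complex IV above. Scaled to the protein-gene counts, the fitted log2 changes were -0.14 for MT-CO1, -0.015 for MT-CO2 and 0.016 for MT-CO3. MT-CYB took 5.41%, 6.41% and 5.95% in CTRL B, C and D, and 6.38%, 7.77% and 6.65% in PPK1 B, C and D. Every pair was higher, although CTRL C lay above PPK1 B. MT-ND2, at 2.89%, 3.23% and 3.03% in CTRL B, C and D and 3.27%, 4.16% and 3.44% in PPK1 B, C and D, had groups that did not overlap. The same held for MT-ATP6 (5.33% to 5.78% in CTRL and 5.83% to 6.62% in PPK1) and MT-ATP8 (0.973% to 1.11% and 1.15% to 1.25%). The transfer RNA MT-TT, with 34 to 52 counts per library, was also apart but lower with PPK1 (0.00200% to 0.00248% in CTRL and 0.00143% to 0.00180% in PPK1). How often such shares were apart over all genes was not taken. MT-ND5 was nearly level, at 7.55 ± 0.43% in CTRL and 7.42 ± 0.47% in PPK1 (mean ± SD, n = 3).

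The same question was put to single genes with edgeR's test, scaling each library to its mitochondrial total. Under this scaling 47.0% of all tested genes were called lower and 0.118% higher, since most other genes shift down with it, so the adjusted p-values of this fit are less strict than usual. MT-RNR2 fell within the mitochondrial total by 0.23 on the log2 scale (SE 0.09, adjusted p 0.0356, unadjusted p 0.0145). Its share was 19.0%, 16.01% and 19.1% in CTRL B, C and D, and 16.9%, 13.3% and 16.3% in PPK1 B, C and D, lower in each pair. The adjusted p was 0.0983 without the block and 0.181, 0.0803 and 0.0957 without pairs B, C and D. Scaled to the protein-gene counts, the log2 change was -0.27 (adjusted p 0.00925). The transfer RNA MT-TP also fell, and is described below. No gene passed upward, and MT-ND1, MT-ND2 and MT-CYB had an unadjusted p under 0.05, with log2 changes of 0.21, 0.24 and 0.23 (edgeR adjusted p 0.0822, 0.0527 and 0.0536).

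The transfer RNA genes were nearly empty, and what counts they had lay mostly on the light strand. All 22 together held between 798 and 1509 counts per library, or 0.03% to 0.06% of the mitochondrial total. The 8 light-strand genes took 94.4%, 92.9% and 93.7% of these in CTRL B, C and D, and 93.6%, 92.0% and 94.0% in PPK1 B, C and D, with 95% Clopper-Pearson half-widths of up to 1.87 points. Of the 14 heavy-strand genes, 7 had no count in any library: MT-TL1, MT-TK, MT-TG, MT-TR, MT-TH, MT-TS2 and MT-TL2. A count of 0 allows up to 3 counts, which is 0.0449 to 0.0734 CPM per library. On the light strand MT-TN and MT-TC each had 1 count in all, and the other 6 passed the filter. MT-TT and MT-TW were the heavy-strand genes that passed. Neither the kit's yield of such short RNAs nor the assignment of reads that cross a gene's end was tested.

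**Figure D4:**
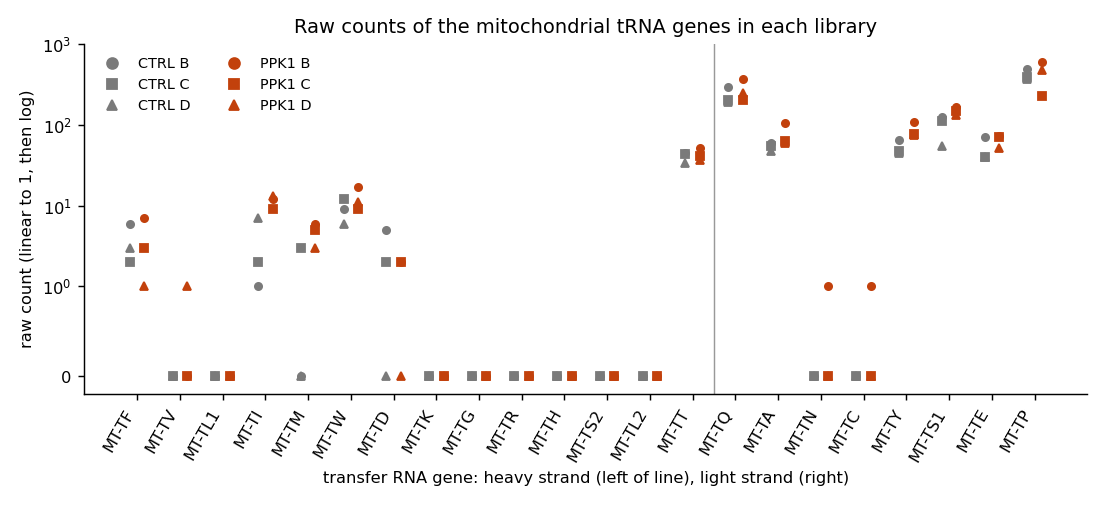
Raw counts (vertical axis, linear up to 1 and logarithmic above) of the 22 transfer RNA genes in the 6 libraries, heavy-strand genes left of the line and light-strand genes right of it. The most counted genes, MT-TP and MT-TQ, are on the light strand, and 7 heavy-strand genes are at 0 in every library.

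The light-strand transfer RNAs on which the results turn are printed from GENCODE release 29 (GRCh38), 5′ to 3′ along the transcript. Capitals mark the anticodon, found as bases 3 to 5 of a 7-base loop between paired stretches of 5 bases. They are the carriers of proline, glutamine, serine and tyrosine.
MT-TP: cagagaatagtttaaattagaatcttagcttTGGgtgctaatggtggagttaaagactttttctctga
MT-TQ: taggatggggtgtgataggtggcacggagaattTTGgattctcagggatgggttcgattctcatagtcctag
MT-TS1: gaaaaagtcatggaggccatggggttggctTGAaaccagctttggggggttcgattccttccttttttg
MT-TY: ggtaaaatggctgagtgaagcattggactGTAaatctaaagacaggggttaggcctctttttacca
Each is shorter than 75 bases, so a read longer than the gene must run into a neighbour or into the precursor.

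MT-TY was the only transfer RNA called. It had 1.23, 1.08 and 1.10 CPM in CTRL B, C and D, and 1.63, 1.63 and 1.79 CPM in PPK1 B, C and D, from 45 to 109 counts. The groups did not overlap, and the change was 0.55 log2 units (SE 0.18, edgeR adjusted p 0.0465). The call was lost without the block (0.0915), under RLE (0.0536) and upper-quartile scaling (0.08), in DESeq2 (0.349) and without any 1 of the 3 pairs (0.0624 to 0.325). MT-TP had 9.24, 8.84 and 9.05 CPM in CTRL B, C and D, and 8.84, 4.80 and 11.3 CPM in PPK1 B, C and D. The control libraries lay close together and PPK1 C was far below them, with 230 counts. Its log2 fold change of -0.18 (SE 0.12) did not pass in edgeR (adjusted p 0.397), was 0.13 without pair C, and was -0.45 with an adjusted p of 0.00345 without pair D. Within the mitochondrial total it fell by 0.57 on the log2 scale (SE 0.17, edgeR adjusted p 0.00663, and 0.439 without pair C and 0.151 without pair B).

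The remaining transfer RNAs showed no change that passed. MT-TS1, with 55 to 165 counts, had log2 differences of 0.05, 0.29 and 1.21 in pairs B, C and D and a fitted value of 0.47 (SE 0.16, edgeR adjusted p 0.0629). It was 0.15 without pair D, and 0.71 without pair B, where it was called (adjusted p 0.00726). Like MT-ND6, it was lowest in CTRL D. MT-TQ, the second in counts, had 5.60, 4.56 and 4.65 CPM in CTRL B, C and D, and 5.51, 4.23 and 5.86 CPM in PPK1 B, C and D, and its groups overlapped. MT-TA had 1.14, 1.24 and 1.17 CPM in CTRL B, C and D, and 1.59, 1.31 and 1.41 CPM in PPK1 B, C and D, so that its groups did not overlap although it did not pass the test. The log2 fold change was 0.06 (SE 0.12) for MT-TQ, and MT-TA had 0.29 (SE 0.19), MT-TE 0.19 (SE 0.21), MT-TW 0.27 (SE 0.41) and MT-TT -0.09 (SE 0.22). Their edgeR adjusted p-values ran from 0.371 to 0.841. The 7 genes that had counts but did not pass the filter, MT-TF, MT-TV, MT-TI, MT-TM, MT-TN, MT-TC and MT-TD, held between 1 and 44 counts over all 6 libraries.

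The strands were compared through their shares. Light-strand genes took 0.657%, 0.560% and 0.375% of the mitochondrial total in CTRL B, C and D, and 0.475%, 0.415% and 0.585% in PPK1 B, C and D. The share was lower with PPK1 in pairs B and C and higher in D, and the exact sign-flip p was 1. Of 16 heavy-strand genes tested, 13 were called higher, against 4.04% of all tested genes. The 16 had medians of 0.39, 0.64 and 0.31 in pairs B, C and D. Of 7 light-strand genes tested, MT-ND6 and MT-TY were called higher, and the pair medians were -0.02, 0.18 and 0.33, as log2 differences. Strand went with RNA class and depth here. The called heavy-strand genes were all protein or ribosomal RNA genes. Every tested light-strand gene but MT-ND6 was a transfer RNA, with at most 591 counts per library. A difference by strand therefore cannot be told from one by RNA class or depth. The counts of MT-ND6 were 7.66%, 6.64% and 4.68% of those of its heavy-strand neighbour MT-ND5 in CTRL B, C and D, and 5.90%, 4.88% and 7.62% in PPK1 B, C and D. Whether the counting used the strand is not given in the sources used here, so reads of a gene and of the precursor copied from the opposite strand cannot be told apart.

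Stretches of mitochondrial DNA have been copied into the nuclear genome, and such copies can take reads of mitochondrial origin. By their symbols 405 copies were in the table, 106 had counts and 14 passed the filter. Of these, 6 were called higher and 0 lower, against 4.04% and 5.04% of all tested genes. MTATP6P1, a copy of MT-ATP6, was the most counted, with 267 ± 22.6 CPM in CTRL and 388 ± 65.0 CPM in PPK1 (mean ± SD, n = 3). Its counts were between 11.6% and 12.4% of those of MT-ATP6 in all 6 libraries, and it rose by 0.53 log2 units (SE 0.08, edgeR adjusted p 1.7e-06). MTND2P28 had between 2.74% and 2.95% of the counts of MT-ND2 and rose by 0.60 log2 units (SE 0.08). MTCO1P12 (log2 fold change 0.26), MTCO2P12 (0.43), MTCO3P12 (0.51) and MTND4P12 (0.45) were also called, with counts of at most 0.415% of their mitochondrial gene. MTND5P11 (0.48, SE 0.18) and MTRNR2L12 (0.11, SE 0.12) were not. Without the block MTATP6P1 was the only copy called. Reads of a gene and its copy cannot be told apart here, and how far this alters the counts of MT-ATP6 and MT-ND2 was not tested.

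The nuclear genes that transcribe, replicate and process mitochondrial DNA and RNA were called at a rate that cannot be told from that of all genes. Of 36 tested, 1 was called higher and 0 lower (edgeR; 4.04% and 5.04% of all genes), with a median log2 fold change of 0.08. The called gene was TWNK, the helicase of mitochondrial DNA replication, at 47.2 ± 2.46 CPM in CTRL and 56.6 ± 6.37 in PPK1 (mean ± SD, n = 3). Its rise was 0.26 log2 units (SE 0.08, edgeR adjusted p 0.0254, and 0.138 without the block). POLRMT, the mitochondrial RNA polymerase, had a log2 fold change of 0.08 (SE 0.08), the transcription factor TFAM 0.12 (SE 0.07) and LRPPRC, which stabilises mitochondrial messenger RNAs, 0.10 (SE 0.07), and none of them passed. Of 10 regulators of mitochondrial biogenesis, 0 were called higher and 2 lower, against 4.04% and 5.04% of all tested genes. So short a list allows no reading of that count. The coactivator PPARGC1A fell from 5.54 ± 0.937 to 3.99 ± 0.533 CPM (log2 fold change -0.45, SE 0.12, edgeR adjusted p 0.0135), and the nuclear receptor ESRRG from 4.81 ± 0.242 to 3.54 ± 0.686 CPM (-0.44, SE 0.13, adjusted p 0.0232; mean ± SD, n = 3). Neither was called without the block (0.118 and 0.137).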

How the data were processed

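The authors deposited 1 table of raw read counts per gene, with 6 columns that match the samples by name. Per the submitters' processing notes, bcl2fastq 2.20, Trimmomatic, STAR, HTSeq, edgeR, DESeq, Cufflinks and Cuffdiff were used. Their roles, the genome build, the annotation and the strand setting are not given in the sources used here, so no positions are printed. Strand, length and sequence of the 37 genes were taken by Ensembl identifier from GENCODE release 29, which held all 37.

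The whole table was tested with edgeR 4.0.16 in R 4.3.3 (filterByExpr with minimum count 10, TMM scaling, glmQLFit and glmQLFTest, Benjamini-Hochberg adjustment over 19574 genes, threshold 0.05), with the replicate letter as a block. The script was run on simulated counts with planted changes larger than most of those reported here, so that run does not cover the smaller changes. Pairing comes from the design text. Deviations from the group means correlated at 0.109, 0.135 and 0.0476 between same-letter libraries B, C and D, and at -0.12 to -0.00506 between letters. Estimated prior degrees of freedom were 47.5 with the block and 8.75 without it, so the fit with the block takes more of a gene's spread from the other genes. Pair differences are of log2 CPM with a prior count of 2. Standard errors are the fold change over the root of F. The 13 protein and 2 ribosomal RNA genes and all tested transfer RNAs are named, with the called genes of each nuclear list and the 8 most counted nuclear copies of at least 50 counts on average. POLRMT, TFAM and LRPPRC were named after their values were seen. Members, lists and tests were chosen with earlier results of these data known. Alternatives were other scalings, filters, DESeq2 1.42.0, no block and leaving out a pair.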

Additional observations from a re-analysis of the deposited data

How the results depend on the processing

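The number of mitochondrial genes called higher was 15, and between 10 and 16 under other scalings, filters, DESeq2 or no block. Over all genes these settings called 470 (no block) to 1780 genes in either direction, against 1777. Leaving out 1 pair gave 6 (without C) to 14 (without B) genes higher and 0 to 1 lower, MT-TP without D. The cause was not tested. Over all genes the fits without pairs B, C and D called 2435, 406 and 1803 genes. Without the replicate block 10 genes were called higher and the calls of MT-ND6, MT-ND5, MT-CO1, MT-CO3 and MT-TY were lost. Within the mitochondrial total 2 genes were called lower, 1 without the block and 0 to 2 without a pair.

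Leaving out 1 pair turned 4 log2 fold changes. They ranged from -0.013 to 0.55 for MT-ND6, from -0.081 to 0.14 for MT-TQ, from -0.040 to 0.51 for MT-TE and from -0.45 to 0.13 for MT-TP. Of those that kept their sign, leaving out 1 pair moved MT-TS1 (0.15 to 0.71), MT-TW (0.041 to 0.68), MT-TA (0.17 to 0.38), MT-TT (-0.19 to -0.030), MT-RNR2 (0.077 to 0.21), MT-RNR1 (0.25 to 0.46) and MT-ND5 (0.22 to 0.43) by over 1.5 times in at least 1 fit. The difference in the light-strand share ranged from -0.164 points without D to 0.0324 without B, and was 0.014 without C, against -0.0391.

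Within the mitochondrial total, the log2 change without 1 pair ranged from -0.44 to 0.14 for MT-ND6, from -0.058 to 0.015 for MT-ND5, from -0.38 to 0.40 for MT-TW, from -0.24 to 0.10 for MT-TA, from -0.28 to 0.32 for MT-TS1, from -0.32 to 0.0951 for MT-TE, from -0.025 to 0.046 for MT-RNR1 and from -0.0055 to 0.051 for MT-ND4L. Scaled to the protein-gene counts it was -0.015 for MT-CO2, -0.029 for MT-RNR1 and -0.024 for MT-ND4L. The transfer RNAs are limited by their depth, with at most 591 counts per gene and library, and the smallest exact p of 3 pairs is 0.25.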
